A study of Mus musculus with 18 samples.

Results

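Enzymes that break down nucleotides outside cells, and receptors that nucleotides and adenosine act on, were examined as a set of 10 genes: *Entpd1*, *Entpd2*, *Entpd3*, *Nt5e*, *Ada*, *P2rx4*, *P2rx7*, *P2ry2*, *Adora2a* and *Adora2b*. They were taken by symbol from 3 tables of RNA sequencing counts, which together hold 20202 gene symbols, and all 10 were present in each table. *Entpd3* had been noted for being higher in the GFP+ cells of every source, so its differences are described without a test, and tests are given for the other 9 genes. Of the 10, 7 passed the filter on low counts in bone, 10 in bone chips and 10 in the ESC comparison.

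The 18 libraries came from 6 mouse cell populations, with 3 libraries each. All of the cells carried Col2.3GFP, a transgene in which a fragment of the *Col1a1* promoter drives green fluorescent protein (GFP) in maturing cells of the osteoblast lineage, so GFP marks the activity of that promoter fragment rather than a cell type as such. Bone GFP+ (hi) cells, labelled osteoblasts, were set against bone GFP- cells, a heterogeneous population, both sorted from fresh long bone. Bone chip GFP+ (hi) cells were set against bone chip GFP- cells, both sorted from cultures of bone chips under osteogenic differentiation. ESC-OB GFP+ cells, osteoblasts differentiated from Col2.3GFP embryonic stem cells, were set against ESC, which carry the same treatment label but are named as stem cells in their titles and cell type. Ages and sexes of the mice, the number of animals per library and the name of the ESC line were not given in the sources used here, and neither the labels nor the methods say that replicates were separate mice or cultures, so p-values here cover the spread among these samples alone.

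ATP leaves bone cells through channels, hemichannels and vesicles and acts on P2X receptors, which are ion channels, and on P2Y receptors, which couple to G proteins. Enzymes of the cell surface end and convert this signal: the NTPDases encoded by *Entpd1*, *Entpd2* and *Entpd3* remove phosphates from ATP and ADP, the product of *Nt5e* (CD73) turns AMP into adenosine, and adenosine deaminase (*Ada*) turns adenosine into inosine. The same reactions bear on bone mineral, since they yield phosphate, and pyrophosphate made from ATP by ENPP1 inhibits mineralization.

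Total counts per library ranged from 21425212 to 43874837 in bone GFP+ (hi) cells against 5482065 to 6468750 in bone GFP- cells, from 13228266 to 15221973 in bone chip GFP+ (hi) cells against 9829832 to 17553194 in bone chip GFP- cells, and from 20680956 to 26601417 in ESC-OB GFP+ cells against 4920977 to 21215099 in ESC. *Col1a1* took 36.2 to 37.5% of the counts of bone GFP+ (hi) libraries, against 0.805 to 1.59% of those of bone GFP- libraries, so that scaling matters there: with TMM factors the median log2 fold change of all genes in bone was -0.00, and with library totals alone it was -1.06, which shifted all genes down (696 called higher and 7789 lower, in place of 2455 and 2776). In bone chips the same change of scaling moved the median to -0.60 (1058 higher and 7921 lower, in place of 2614 and 2967). Of the 9 osteoblast markers, 9 were higher in bone and bone chip GFP+ (hi) cells and 6 of 6 tested were higher in ESC-OB GFP+ cells, while *Bglap* and *Ibsp* were at 0 in ESC. The GFP+ populations were not alike in level. *Col1a1* took 12.1 to 14.4% of the counts of bone chip GFP+ (hi) libraries and 0.324 to 0.774% of those of ESC-OB GFP+ libraries. The summed level of 7 chondrocyte markers was 1814 to 4618 CPM (counts scaled to equal library size) in bone GFP+ (hi) cells, against 97440 to 199370 CPM in bone GFP- cells, and all 7 were lower. Transcripts of 4 Y-linked genes summed to 0.192, 62.3 and 0.433 CPM in bone GFP+ (hi) replicates 1 to 3, against 73.0 to 133 CPM in the bone GFP- libraries, so in bone the GFP effect and that of sex or animal cannot be told apart. ESC replicates 2 and 3 lay closer together than any other pair of replicates (a chi-square of 1.68 per degree of freedom, against 6.76 to 125), though further apart than sampling noise. ESC-OB GFP+ cells also expressed markers of other lineages, with 2406 to 3906 CPM of 6 epithelial markers, against 427 to 562 CPM in ESC, and 833 to 1223 CPM of 5 fibroblast and progenitor markers, against 2.51 to 5.16 CPM in ESC.

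*Entpd3* encodes an NTPDase of the cell surface that hydrolyses ATP and ADP and is best known from neurons and pancreatic islet cells. It lies on chromosome 9 from 120448936 to 120477435 on the plus strand (mm9, GENCODE vM1), with 11 merged exons of 3746 bases, and no other annotated gene overlaps it. *Entpd2* lies on chromosome 2 from 25251394 to 25256843 on the plus strand and shares 612 exonic bases with *Npdc1* on the same strand, so its counts may hold reads of that gene. The promoters of both are shown because among *Entpd1*, *Entpd2* and *Entpd3* the first shown led in bone GFP+ (hi) cells and the second in bone GFP- cells, each in a window of 300 bases around the annotated start (RefSeq, GRCm38.p6, a later build than that of the counts), and capitals mark matches to AP-1 (TGANTCA) and to the E-box CACGTG on either strand.
Entpd3 promoter, chr9:120539568-120539867, plus strand: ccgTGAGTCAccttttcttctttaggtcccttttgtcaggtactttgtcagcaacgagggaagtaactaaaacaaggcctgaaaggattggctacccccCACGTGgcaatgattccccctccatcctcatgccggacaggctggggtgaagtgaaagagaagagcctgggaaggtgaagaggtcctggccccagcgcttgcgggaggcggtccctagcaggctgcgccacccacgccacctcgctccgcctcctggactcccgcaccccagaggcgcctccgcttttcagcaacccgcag
Entpd2 promoter, chr2:25395624-25395923, plus strand: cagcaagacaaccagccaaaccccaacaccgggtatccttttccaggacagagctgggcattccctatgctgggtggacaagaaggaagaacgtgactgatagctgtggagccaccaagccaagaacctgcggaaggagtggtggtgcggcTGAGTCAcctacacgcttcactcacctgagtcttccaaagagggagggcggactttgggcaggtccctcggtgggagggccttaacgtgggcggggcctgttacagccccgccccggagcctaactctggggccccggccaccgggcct
The window of *Entpd3* held an AP-1 match at position -247 from the start and an E-box match at position -151, and no RUNX match (TGTGGT). That of *Entpd2* held an AP-1 match at position -99 and 3 GC boxes (GGGCGG). Of all 32851 promoters in the table, 7.81% held the AP-1 letters, 7.15% the E-box, 16.8% RUNX and 35.7% a GC box. Promoters were found for 9 of the 10 genes, all but *Adora2a*, and 3 of the 9 held the AP-1 letters (*Entpd2*, *Entpd3* and *P2rx7*). The E-box was in 2 of the 9, RUNX in 1 and a GC box in 7. These counts are of genes with a match in any of their promoters, whereas the shares above are of single promoters. The motifs were chosen with the results known, do not overlap in these windows, and the matches describe letters, not bound sites.

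*Entpd3* was the most abundant member in bone and bone chip GFP+ (hi) cells. It had 447, 432 and 530 CPM in the 3 bone GFP+ (hi) libraries, against 0.659, 0.914 and 1.29 CPM in the bone GFP- libraries, where these levels are 6, 8 and 11 counts. Every GFP+ library lay far above every GFP- library, and the fitted log2 fold change was 8.94 (SE 0.26), or 491-fold. In bone chips it had 218, 176 and 194 CPM in GFP+ (hi) cells, against 5.66, 9.76 and 4.40 CPM in GFP- cells, a log2 fold change of 4.89 (SE 0.30). In ESC-OB GFP+ cells it had 45.2, 33.8 and 40.8 CPM, against 0.553, 0.999 and 1.26 CPM in ESC, a log2 fold change of 5.39 (SE 0.30). No GFP+ library overlapped a reference library in any source, which restates the choice of *Entpd3* for being higher in every source. Of all genes tested, 55.9% in bone, 56.1% in bone chips and 81.6% in the ESC comparison did not overlap either. *Col1a1*, whose promoter drives the transgene, had log2 fold changes of 6.10, 2.60 and 9.04 in the same comparisons, so *Entpd3* differed more than *Col1a1* in bone and bone chips and less in the ESC comparison.

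Levels of different genes and populations were compared as RPKM (reads per kilobase of exon, scaled for depth, with libraries of all 3 tables scaled together). By this scale the order of *Entpd3* was bone GFP+ (hi) (200 ± 25.3), bone chip GFP+ (hi) (57.9 ± 6.39), ESC-OB GFP+ (6.30 ± 0.846), bone chip GFP- (1.96 ± 0.828), bone GFP- (0.370 ± 0.122) and ESC (0.148 ± 0.0569; SD, n = 3 each). No neighbours in this order overlapped, and the GFP+ cells of each source lay above all 3 reference populations.

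**Figure D1:**
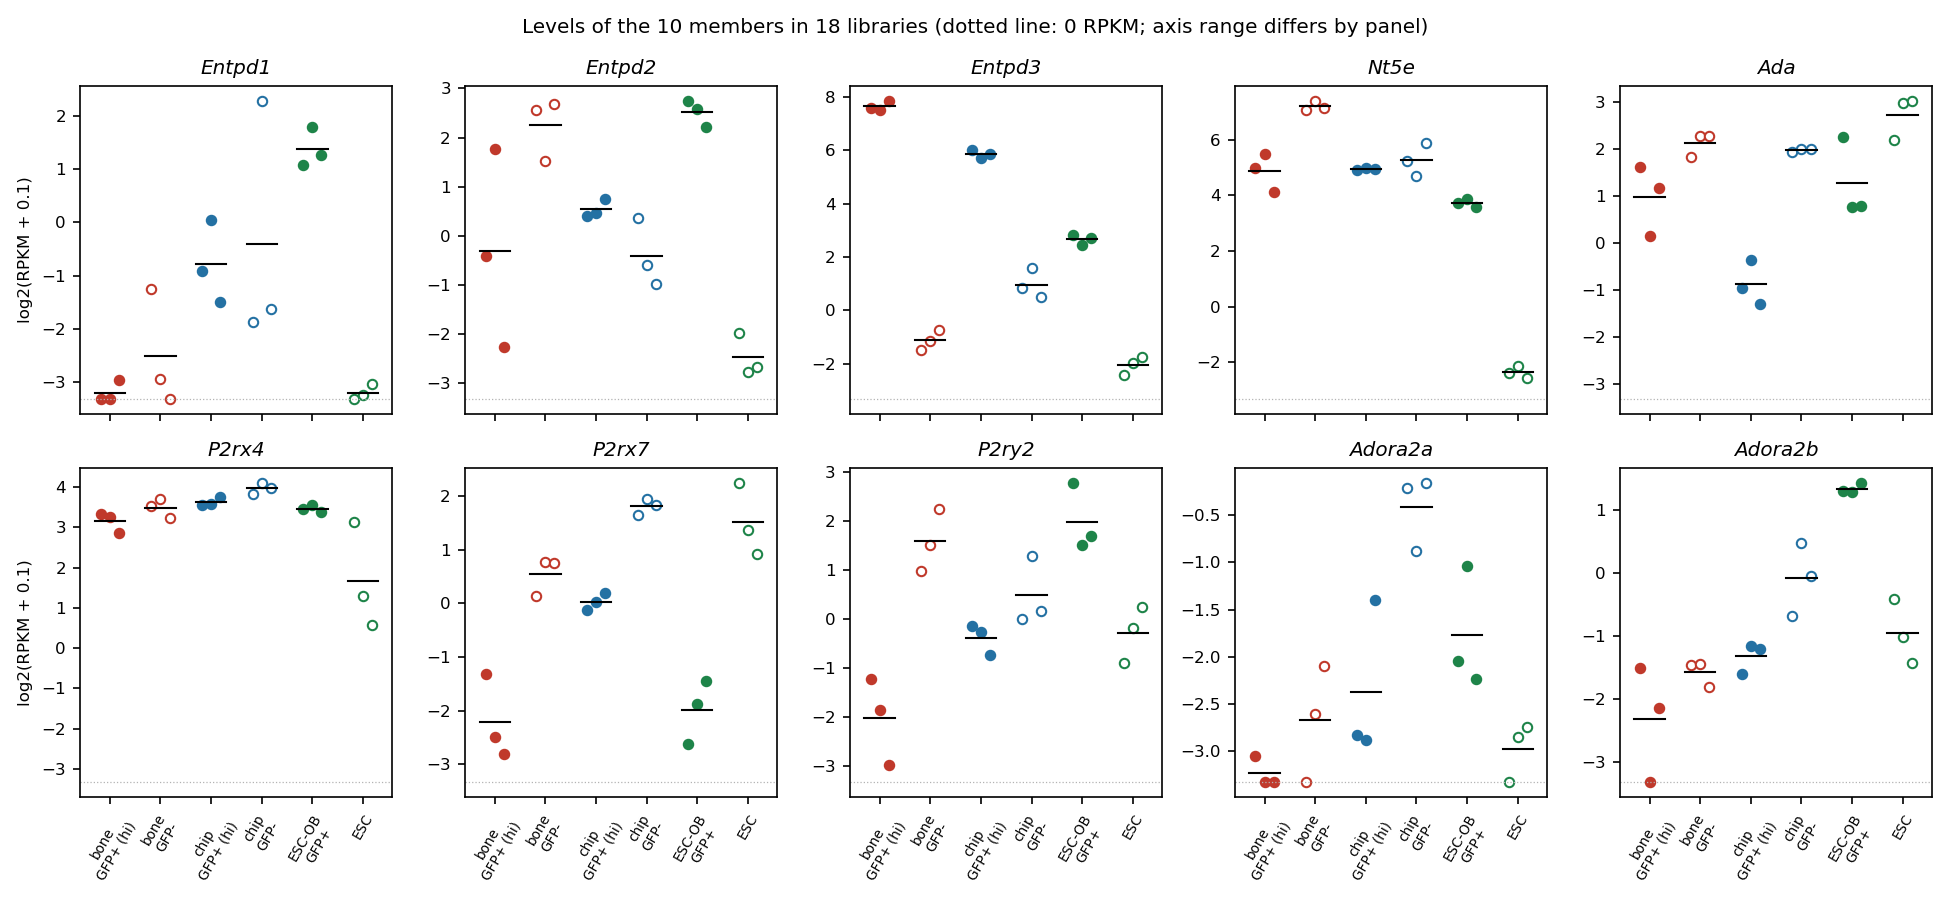
Levels of the 10 genes on a log2 scale of RPKM + 0.1 (y axis, range set per panel) in the 6 populations (x axis). Points are libraries, filled for GFP+ cells and open for the reference, lines are means of 3 libraries, and the *Entpd3* panel shows all GFP+ libraries above all reference libraries.

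*Entpd1* (CD39), the NTPDase of leukocytes and blood vessels, was scarce outside the ESC-OB GFP+ cells. It had 0, 0 and 2 counts in bone GFP+ (hi) cells against 11, 1 and 0 counts in bone GFP- cells, and was not tested there. In bone chips it had 2.18, 4.73 and 1.28 CPM in GFP+ (hi) cells, against 0.870, 23.9 and 1.11 CPM in GFP- cells. The groups overlapped, and only GFP- replicate 2 was high. The log2 fold change was -1.66 (SE 1.26, adjusted p = 0.324 by edgeR's quasi-likelihood test with Benjamini-Hochberg adjustment, as for all genes below), and without that library it was 1.41 (adjusted p = 0.0779). In ESC-OB GFP+ cells it had 19.2, 31.3 and 21.5 CPM, against 0, 1 and 1 counts in the ESC libraries. It was called higher (log2 fold change 8.25, SE 0.54, adjusted p = 2.23e-07), and the ratio of the summed counts at these depths was 331, with a counting interval of 91.5 to 2740. The 10 monocyte and macrophage markers summed to 188 to 249 CPM in ESC-OB GFP+ cells, against 17.4 to 27.8 CPM in ESC, with 7 of 8 tested higher and *Emr1* and *Lyz2* at 0 in ESC. The 6 neutrophil markers in the table summed to 660 to 838 CPM in ESC-OB GFP+ cells, against 0 to 0.368 CPM in ESC, where *Mpo*, *S100a8* and *S100a9* were at 0. Only 1 of the 6 passed the filter on low counts, and it was called higher. This sum may thus rest on 1 gene and is not read as a level of neutrophils. Other blood and vessel markers went both ways. Of those tested, 5 of 5 T lymphoid and 2 of 4 B lymphoid markers were lower, with 0 higher in either list. Erythroid markers had 3 of 4 lower and 1 higher, and those of megakaryocytes and platelets had 3 of 3 higher. The 7 endothelial markers summed to 69.2 to 138 CPM in ESC-OB GFP+ cells, against 165 to 227 CPM in ESC, with 4 of 6 tested higher and 2 lower. The part of any of these cell types in the higher *Entpd1* was not tested.

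*Entpd2*, an NTPDase that prefers ATP over ADP, did not pass the test in either sorted source. It had 0.865, 4.51 and 0.144 CPM in bone GFP+ (hi) cells, against 8.46, 4.11 and 9.23 CPM in bone GFP- cells. GFP+ replicate 2, the one with Y-linked transcripts, lay within the range of the GFP- libraries, and the other GFP+ libraries lay far below it. The log2 fold change was -2.03 (SE 0.90, adjusted p = 0.098), and without GFP+ (hi) replicate 2 it was -3.76 (adjusted p = 0.00446). It was also called lower by DESeq2 (-2.03, adjusted p = 0.0396), by the joint fit of 18 libraries (-1.94, adjusted p = 0.0255) and with library totals alone (-3.07, adjusted p = 0.0109). In bone chips the levels were 2.37, 2.49 and 3.03 CPM in GFP+ (hi) cells and 2.26, 1.08 and 0.788 CPM in GFP- cells (log2 fold change 0.98, SE 0.40, adjusted p = 0.0894). Among the alternatives run, *Entpd2* was called higher there only without bone chip GFP- replicate 1 (1.52, adjusted p = 0.011). Its level was 24.1, 20.9 and 16.4 CPM in ESC-OB GFP+ cells, against 0.553, 0.166 and 0.209 CPM in ESC, and it was called higher (6.27, SE 0.44, adjusted p = 4.03e-07).

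The make-up of the transcripts of *Entpd1*, *Entpd2* and *Entpd3* is given as a description over these 3 genes, without the other NTPDases. *Entpd3* made up 98.2 to 99.9% of their summed RPKM in bone GFP+ (hi) cells, against 4.03 to 11.1% in bone GFP- cells, where *Entpd2* held 88.0 to 92.7%. Among bone chip libraries *Entpd3* made up 95.9 to 97.5% in GFP+ (hi) cells, against 35.2 to 67.4% in GFP- cells. In ESC-OB GFP+ cells no gene prevailed, with 36.9 to 48.5% *Entpd3*, 34.3 to 42.2% *Entpd2* and 12.8 to 23.0% *Entpd1*. ESC held too few transcripts of the 3 genes for shares to be read, with a summed RPKM of 0.210 to 0.280.

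**Figure D2:**
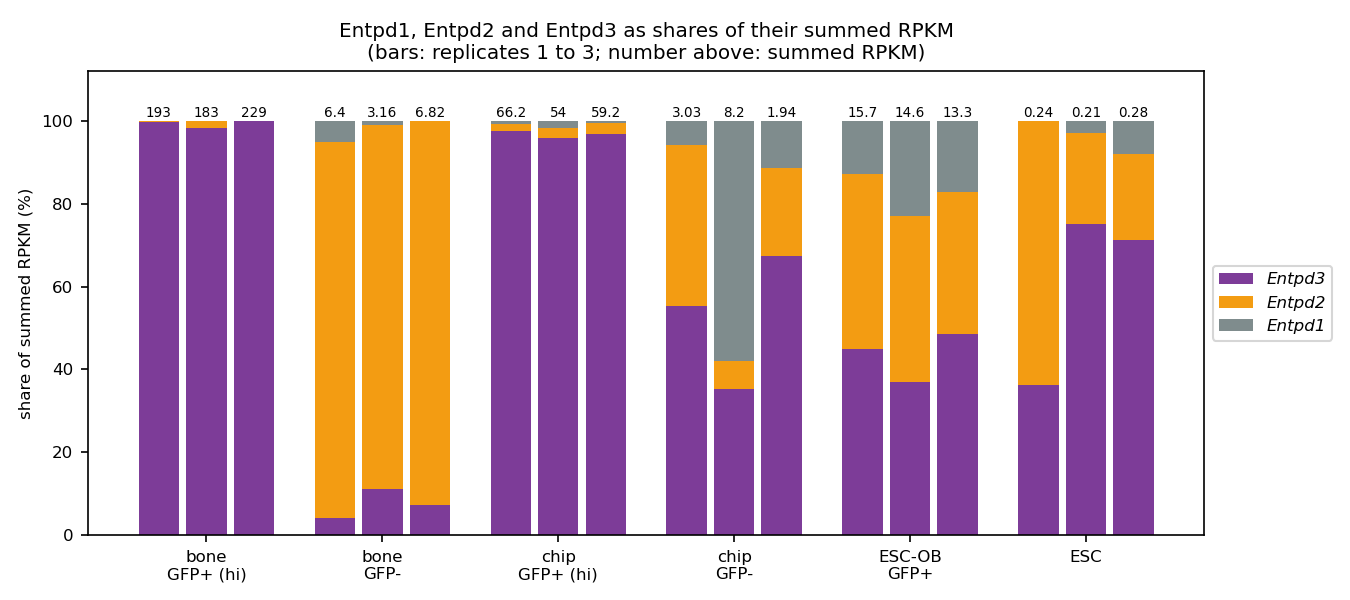
Shares of *Entpd3*, *Entpd2* and *Entpd1* in their summed RPKM (y axis, %) in each library (x axis, 3 bars per population), with the summed RPKM above each bar. *Entpd3* fills 95.9 to 99.9% of the bars of bone and bone chip GFP+ (hi) cells, and the summed RPKM falls to between 0.210 and 0.280 in ESC.

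Among the 9 genes with a test, none was called higher and 3 were called lower in bone GFP+ (hi) cells (*Nt5e*, *P2rx7* and *P2ry2*), 3 were not called (*Entpd2*, *Ada* and *P2rx4*) and 3 were not tested. Of all 12559 genes tested in bone, 19.5% were called higher and 22.1% lower. In bone chips none was called higher, 5 were called lower (*Ada*, *P2rx4*, *P2rx7*, *Adora2a* and *Adora2b*) and 4 were not called, where 20.4% of all genes were called higher and 23.1% lower. In the ESC comparison 7 were called higher and 2 lower (*Ada* and *P2rx7*), where 43% of all genes were called higher and 34.7% lower. With library totals alone, which lowers the median of all genes as given above, 6 of 6 tested were called lower in bone and 7 of 9 in bone chips. The CPM of the groups did not overlap for 5 of the 6 tested in bone, where 55.9% of all genes tested did not. The same count was 7 of 9 in bone chips (56.1% of all genes) and 8 of 9 against ESC (81.6% of all genes). The median log2 fold changes of the genes of the set that were tested, -2.20, -1.55 and 2.49 in these sources, stood beside -0.00, -0.04 and 0.22 for all genes. In these sorted bulk samples fewer cells that express a gene and less of its RNA per cell cannot be told apart.

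**Figure D3:**
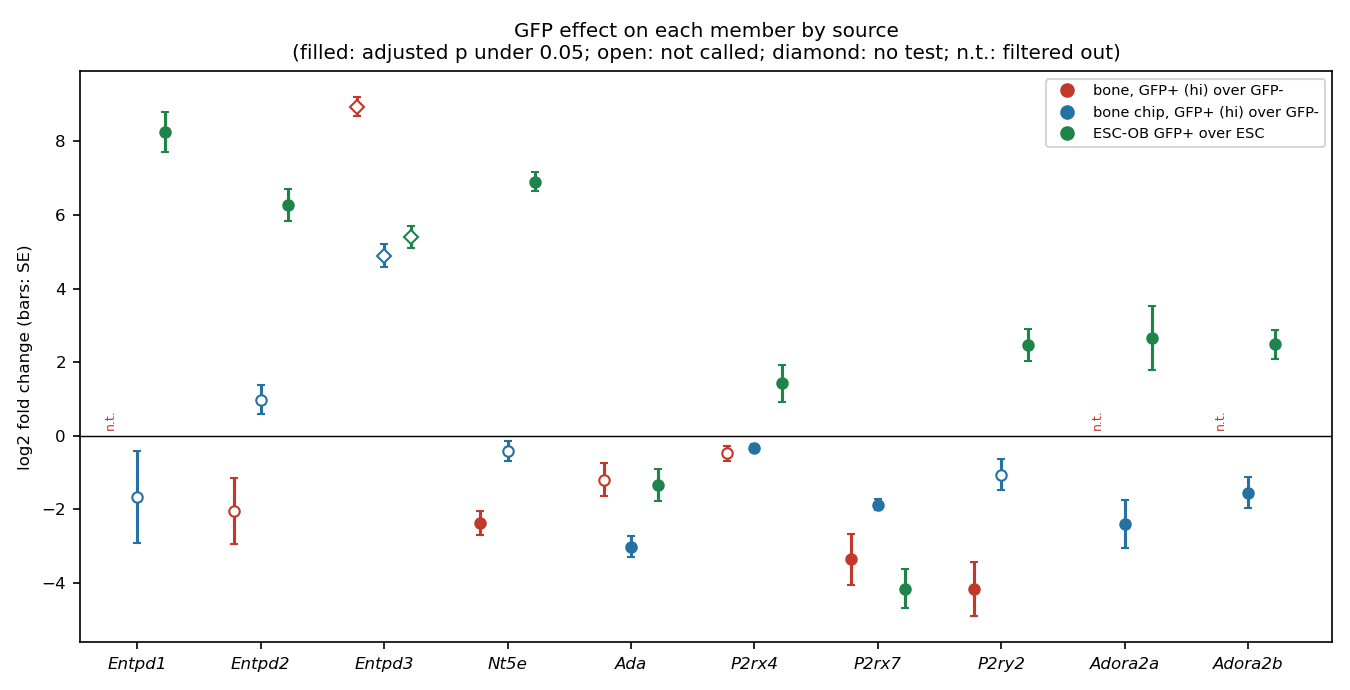
Log2 fold change (y axis, bars are SE) of each gene (x axis) in bone, bone chips and the ESC comparison, GFP+ cells over their reference. Filled points passed an adjusted p of 0.05, open points did not, diamonds mark *Entpd3*, which had no test, and *P2rx7* lies below 0 with a filled point in all 3 sources.

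*Nt5e* encodes CD73, which makes adenosine from AMP and is used as a surface marker of mesenchymal stromal cells. It had 69.7, 103 and 38.4 CPM in bone GFP+ (hi) cells, against 324, 416 and 348 CPM in bone GFP- cells. The groups lay apart, and *Nt5e* was called lower (log2 fold change -2.37, SE 0.32, adjusted p = 0.000311). Bone chips had 95.6, 101 and 98.8 CPM in GFP+ (hi) cells, against 119, 82.2 and 190 CPM in GFP- cells, which overlapped (-0.41, SE 0.28, adjusted p = 0.273). Without bone chip GFP- replicate 2 it was called lower there too (-0.66, adjusted p = 0.0193). The level was 79.5, 87.3 and 71.2 CPM in ESC-OB GFP+ cells, against 0.553, 0.777 and 0.419 CPM in ESC, and it was called higher (6.90, SE 0.26, adjusted p = 1.09e-08). By RPKM, *Nt5e* made up 6.78 to 18.8% of the summed level of the 10 genes in bone GFP+ (hi) cells, against 83.8 to 86.7% in bone GFP- cells, and in the GFP+ (hi) cells *Entpd3* made up 75.3 to 89.4%. This sum holds *Entpd3*, chosen for being higher in GFP+ cells. The lower share of *Nt5e* there thus follows in part from that choice and adds nothing to the test above.

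*Ada*, which removes adenosine, was at 3.72, 1.30 and 2.70 CPM in bone GFP+ (hi) cells and at 4.72, 6.62 and 6.54 CPM in bone GFP- cells. The groups did not overlap but the difference was not called (-1.20, SE 0.45, adjusted p = 0.0571). It was called without bone GFP+ (hi) replicate 1 (-1.56, adjusted p = 0.0423) and by DESeq2 (-1.22, adjusted p = 0.029). Bone chips had 0.757, 1.24 and 0.558 CPM in GFP+ (hi) cells, against 6.79, 7.04 and 7.04 CPM in GFP- cells, and *Ada* was called lower (-3.02, SE 0.28, adjusted p = 0.000248). It was at 16.2, 5.43 and 5.55 CPM in ESC-OB GFP+ cells, against 15.3, 26.3 and 27.2 CPM in ESC. Replicate 1 of each group lay within the range of the other group, and the call of lower (-1.34, SE 0.43, adjusted p = 0.0142) was lost without ESC-OB GFP+ replicate 2 (-0.996, adjusted p = 0.0781), ESC-OB GFP+ replicate 3 (-1.01, adjusted p = 0.0976) or ESC replicate 2 (-1.23, adjusted p = 0.0679).

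*P2rx4* and *P2rx7* encode ATP-gated ion channels, of which the second responds only to high ATP and is studied in osteoblasts, osteoclasts and macrophages. *P2rx7* was called lower in the GFP+ cells of all 3 sources, the only gene of the 9 to do so. It had 1.03, 0.273 and 0.144 CPM in bone GFP+ (hi) cells (32, 4 and 3 counts), against 3.73, 6.17 and 5.96 CPM in bone GFP- cells (-3.36, SE 0.70, adjusted p = 0.00411). In bone chips it had 4.07, 4.56 and 5.18 CPM in GFP+ (hi) cells, against 15.0, 18.6 and 17.1 CPM in GFP- cells (-1.87, SE 0.15, adjusted p = 0.000126). The levels were 0.587, 1.60 and 2.49 CPM in ESC-OB GFP+ cells, against 43.1, 23.1 and 16.5 CPM in ESC (-4.15, SE 0.52, adjusted p = 2.8e-05). No groups overlapped, and the call was kept under every alternative run in the 3 sources, with adjusted p of at most 0.0233 in bone, 0.00768 in bone chips and 0.000917 in the ESC comparison.

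*P2rx4*, by contrast, varied little by the sort with TMM factors and was the main transcript of the 3 P2 receptors in the sorted populations and in ESC-OB GFP+ cells. Among the alternatives run, its log2 fold change went as low as -1.54 in bone and -0.89 in bone chips, and with library totals alone it was called lower in bone. It had 20.5, 20.2 and 14.7 CPM in bone GFP+ (hi) cells, against 25.9, 29.9 and 21.0 CPM in bone GFP- cells (-0.47, SE 0.21, adjusted p = 0.0978). In bone chips it had 34.7, 35.4 and 40.2 CPM in GFP+ (hi) cells, against 42.0, 50.7 and 46.7 CPM in GFP- cells. This small difference was called (-0.34, SE 0.10, adjusted p = 0.0358), but the call was lost without bone chip GFP+ (hi) replicate 1 (-0.30, adjusted p = 0.129) or 2 (-0.31, adjusted p = 0.112), without GFP- replicate 2 (-0.28, adjusted p = 0.0635) or 3 (-0.31, adjusted p = 0.087), and with libraries thinned to equal totals or fitted jointly. Its levels were 61.1, 65.2 and 57.9 CPM in ESC-OB GFP+ cells, against 49.0, 13.1 and 7.75 CPM in ESC, of which replicate 1 stood apart. It was called higher (1.42, SE 0.50, adjusted p = 0.0224), and not with ESC replicates 2 and 3 added as 1 sample (1.04, adjusted p = 0.055) or without any single library other than ESC replicate 1 (adjusted p of 0.0547 to 0.123). *P2rx4* made up 94.1 to 99.1% of the summed RPKM of *P2rx4*, *P2rx7* and *P2ry2* in bone GFP+ (hi) cells, against 59.8 to 80.0% in bone GFP- cells. In the chips this share was 87.8 to 89.7% in GFP+ (hi) cells, against 73.7 to 78.3% in GFP- cells.

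*P2ry2* encodes a G protein-coupled receptor for ATP and UTP. In bone it had 0.609, 0.341 and 0.0481 CPM in GFP+ (hi) cells (19, 5 and 1 counts), against 3.84, 5.71 and 9.58 CPM in GFP- cells, and was called lower (-4.17, SE 0.74, adjusted p = 0.00168). Bone chips had 2.18, 1.99 and 1.35 CPM in GFP+ (hi) cells, against 2.44, 6.28 and 2.73 CPM in GFP- cells, where replicate 2 was high, and the difference was not called (-1.06, SE 0.42, adjusted p = 0.0845). Levels were 34.3, 13.7 and 15.7 CPM in ESC-OB GFP+ cells, against 2.21, 3.94 and 5.44 CPM in ESC, and it was called higher (2.47, SE 0.43, adjusted p = 0.000326).

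The A2 adenosine receptors, which raise cyclic AMP, were near the limit of detection in bone. *Adora2a* had 1, 0 and 0 counts in bone GFP+ (hi) cells and 0, 1 and 2 counts in bone GFP- cells, and *Adora2b* had 9, 0 and 3 counts in bone GFP+ (hi) cells and 3, 3 and 2 counts in bone GFP- cells. A difference of these receptors was not detectable in bone at this depth. In bone chips *Adora2a* had 0.0946, 0.0830 and 0.638 CPM in GFP+ (hi) cells, against 1.74, 1.01 and 1.81 CPM in GFP- cells (-2.40, SE 0.65, adjusted p = 0.0227). *Adora2b* had 0.378, 0.581 and 0.558 CPM in GFP+ (hi) cells, against 0.870, 2.16 and 1.44 CPM in GFP- cells (-1.55, SE 0.42, adjusted p = 0.022). Both were called lower on 1 to 39 counts per library, and the calls did not last when single libraries were left out: *Adora2a* was not called in 4 of 6 such fits (adjusted p up to 0.08) and *Adora2b* in 3 of 6 (adjusted p up to 0.0816). In ESC-OB GFP+ cells *Adora2b* had 7.49, 7.20 and 8.04 CPM, against 2.03, 1.22 and 0.838 CPM in ESC, and it was called higher (2.49, SE 0.39, adjusted p = 0.000156). *Adora2a* had 0.621, 1.64 and 0.482 CPM there, against 0, 0.166 and 0.209 CPM in ESC (2.65, SE 0.86, adjusted p = 0.0152), and was not called without ESC replicate 2 (3.10, adjusted p = 0.0714).

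Markers of other cell types also differed between the groups, though not all in 1 direction. In bone, the 7 chondrocyte markers given above were lower in GFP+ (hi) cells. The 8 embryonic stem cell markers summed to 21.9 to 28.2 CPM in bone GFP+ (hi) cells, against 0.114 to 0.549 CPM in bone GFP- cells. All 7 that were tested were higher, and the origin of these transcripts was not tested. The 10 monocyte and macrophage markers summed to 5.06 to 20.6 CPM in GFP+ (hi) cells, against 26.2 to 38.1 CPM in GFP- cells. Of 5 tested, 2 were lower and 0 higher, and *Emr1*, *C1qa*, *C1qb* and *C1qc* were at 0 in GFP+ (hi) cells. Osteoclast markers summed to 126 to 149 CPM in GFP+ (hi) cells, against 62.1 to 89.1 CPM in GFP- cells, with 1 of 3 tested higher. Fibroblast and progenitor markers summed to 116 to 164 CPM, against 79.3 to 130 CPM, with 1 of 5 higher and 4 lower. Neutrophil markers summed to 2.24, 49.0 and 21.0 CPM in GFP+ (hi) cells, against 210, 4.57 and 5.72 CPM in GFP- cells, with 0 of 6 tested called. Bone GFP- replicate 1 was also high in B lymphoid markers (98.9 CPM). The part of these cell types in the lower *Nt5e*, *P2rx7* and *P2ry2* was not tested. Without bone GFP- replicate 1 all 3 genes were still called lower. Chondrocyte and macrophage sums were higher in all 3 bone GFP- libraries than in GFP+ (hi) cells, so this fit does not bear on those cell types. Bone GFP+ (hi) replicate 2, the one with Y-linked transcripts, set alone against the bone GFP- libraries gave log2 differences of -1.80 for *Nt5e*, -4.20 for *P2rx7*, -4.16 for *P2ry2*, -2.17 for *Ada* and 8.83 for *Entpd3*, as values of 1 library with no test. For *Entpd2* the value was only -0.67. *P2rx4* had 20.2 CPM in this library, against 21.0 to 29.9 CPM in the bone GFP- libraries. In bone chips the macrophage markers summed to 744, 962 and 551 CPM in GFP+ (hi) cells, against 505, 4644 and 383 CPM in GFP- cells. The *Entpd1* level followed the library with the high sum, and *P2ry6* (27.7 CPM there, against 2.79 and 2.08 CPM in the other GFP- libraries), *P2ry12* (6.66, against 0.609 and 0.324 CPM) and *P2ry13* (5.58, against 0.696 and 0.371 CPM), which encode receptors for UDP and ADP found on macrophages, were high in it as well. *P2rx7* was also at its highest there, but by a small margin, at 18.6 CPM against 15.0 and 17.1 CPM in the other GFP- libraries. The part of macrophages in these levels was not tested. Without bone chip GFP- replicate 2, 5 genes were called lower in bone chips, with *Nt5e* in place of *P2rx4*.

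**Figure D4:**
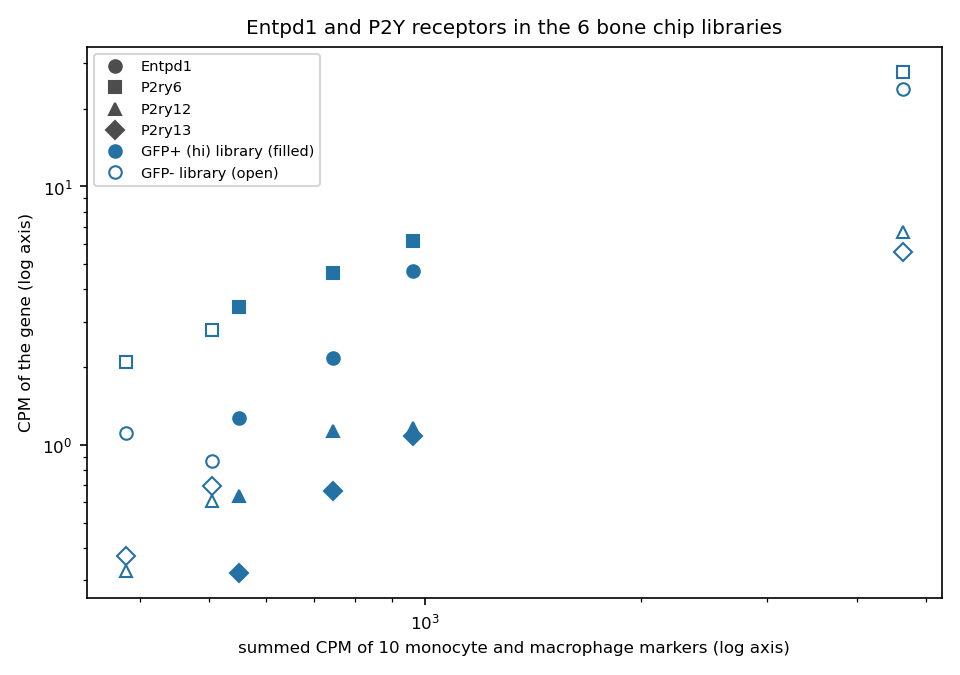
CPM of *Entpd1*, *P2ry6*, *P2ry12* and *P2ry13* (y axis, log) against the summed CPM of 10 monocyte and macrophage markers (x axis, log) in the 6 bone chip libraries, filled for GFP+ (hi) and open for GFP- cells. The single GFP- library at 4644 CPM of markers holds the highest level of each of the 4 genes.

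Whether GFP sorting separated these genes alike in fresh bone and in cultured chips was tested with an interaction term in 1 fit of 12 libraries, given as bone minus bone chip. Of the 9 genes, 3 differed, which is near the share of all genes, 30.3%. The bone effect also holds that of sex or animal, as given above. *Nt5e* was lower in bone and not called in bone chips, a difference of -1.95 (SE 0.47, adjusted p = 0.00762), which was called under every alternative run. The same held for *P2ry2* (-3.12, SE 0.86, adjusted p = 0.0159), except that its call was lost with libraries thinned to the smallest total (-2.72, adjusted p = 0.145). For *Ada*, lower in bone chips and not called in bone, the difference was 1.82 (SE 0.55, adjusted p = 0.0254), and this call was lost with libraries thinned to the smallest total (2.69, adjusted p = 0.0899), with a replicate block (1.77, adjusted p = 0.0688), with library totals alone (1.32, adjusted p = 0.0865) and without bone GFP+ (hi) replicate 1 (1.46, adjusted p = 0.0621), bone GFP- replicate 1 (1.68, adjusted p = 0.0551) or bone chip GFP+ (hi) replicates 1 (1.76, adjusted p = 0.0657) or 3 (1.60, adjusted p = 0.0685). *Entpd2* had opposite signs in the sources, and the difference of -3.01 (SE 1.15) did not pass (adjusted p = 0.0656). For *P2rx7* the difference was -1.43 (SE 0.63, adjusted p = 0.107). *Entpd3* differed by 4.04 (SE 0.40) on the log2 scale, given as a description.

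A list of 40 further genes of the same system was examined in the same fits. In bone, 21 were tested, of which 9 passed as higher and 8 as lower while 4 did not pass, and their median log2 fold change was 0.39, beside 19.5% higher, 22.1% lower and a median of -0.00 among all genes tested. Of 27 tested in bone chips, 9 passed as higher and 11 as lower while 7 did not pass, and their median was -0.88, beside 20.4% higher, 23.1% lower and a median of -0.04 among all genes. Of 33 tested against ESC, 20 passed as higher and 7 as lower while 6 did not pass, with a median of 1.94, beside 43% higher, 34.7% lower and a median of 0.22 among all genes. The list's median was the same when the 2 genes without a count in ESC took their bound.

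Of 5 genes of ATP release, *Gja1*, which encodes the gap junction protein connexin 43 of osteoblasts and osteocytes, was higher in all 3 sources (3.35, 0.71 and 3.46; adjusted p of 1.41e-06, 0.00134 and 2.31e-06). In bone chips its call was lost with library totals alone (0.15, adjusted p = 0.189). It was also abundant, with a mean of 2274 CPM in bone GFP+ (hi) cells against 223 CPM in bone GFP- cells. *Panx3*, a pannexin of cartilage and bone, was lower in bone (mean 114 CPM in GFP+ (hi) cells, 426 CPM in GFP- cells; -1.91, adjusted p = 4.11e-05) and higher in bone chips (818 CPM in GFP+ (hi) cells, 57.2 CPM in GFP- cells; 3.84, adjusted p = 1.75e-05). *Slc17a9*, the transporter that loads vesicles with ATP, was higher in bone (1.03, adjusted p = 0.00156) and bone chips (1.32, adjusted p = 0.00077) and lower in ESC-OB GFP+ cells (-1.23, adjusted p = 0.00131), but in bone its change vanished with library totals alone (-0.01, adjusted p = 0.951).

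Of 12 other enzymes that act on nucleotides or phosphate esters, 9 were tested in bone, where 5 passed as higher and 3 as lower (19.5% and 22.1% of all genes). In bone chips 9 were tested, with 3 higher and 4 lower (20.4% and 23.1% of all genes). Against ESC 11 were tested, with 8 higher and 2 lower (43% and 34.7% of all genes). *Entpd4*, an NTPDase of the Golgi and lysosomes, was higher in every source under either scaling (1.60, 1.43 and 3.11 with TMM factors, 0.54, 0.88 and 3.33 with library totals). *Entpd6* was lower in bone (-2.47, adjusted p = 0.0117) and bone chips (-0.84, adjusted p = 0.00371) and higher in ESC-OB GFP+ cells (0.70, adjusted p = 0.00288). *Enpp1*, which makes pyrophosphate from ATP, was lower in bone (mean 21.7 CPM in GFP+ (hi) cells, 181 CPM in GFP- cells; -3.06, adjusted p = 0.000166) and bone chips (13.6 CPM in GFP+ (hi) cells, 143 CPM in GFP- cells; -3.40, adjusted p = 0.000169). In ESC-OB GFP+ cells it was higher (1129 counts in all, against 3 in ESC, a ratio of 140 with a counting interval of 47.9 to 681). *Alpl*, the alkaline phosphatase that cleaves pyrophosphate, ran the other way, higher in bone (1.36, adjusted p = 0.000432) and bone chips (2.53, adjusted p = 2.84e-05) and lower against ESC (-3.09, adjusted p = 0.000297). In bone its call was lost with library totals alone (0.32, adjusted p = 0.152). So were the bone calls of higher for *Cant1* (0.33, adjusted p = 0.433) and *Entpd7* (0.27, adjusted p = 0.436), and *Entpd5* was lower instead (-0.56, adjusted p = 0.0171). In bone chips *Entpd7* also lost its call this way (-0.00, adjusted p = 0.987). *Cd38* and *Bst1*, which use NAD, were scarce in bone GFP+ (hi) cells, with 32 and 0 counts, against 57 and 12 counts in bone GFP- cells (*Cd38* -1.97, adjusted p = 0.0461, and 0.0531 with a replicate block; *Bst1* not tested).

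Genes that move or convert nucleosides did not follow 1 direction. *Slc29a1*, the main equilibrative transporter that takes up adenosine, was lower in bone (mean 105 CPM in GFP+ (hi) cells, 505 CPM in GFP- cells; -2.27, adjusted p = 7.01e-06) and bone chips (-0.88, adjusted p = 0.00441). *Adk*, the kinase that returns adenosine to AMP, was lower in bone (-1.71, adjusted p = 0.000107), higher in bone chips (0.58, adjusted p = 0.0135, but 0.02 and an adjusted p of 0.875 with library totals alone) and higher in ESC-OB GFP+ cells (1.94, adjusted p = 2.02e-06). *Pnp*, which splits inosine, was lower in both sorted sources (-0.77, adjusted p = 0.00463, and -1.33, adjusted p = 0.00202). *Xdh*, which ends the path in uric acid, was higher in bone (2.58, adjusted p = 7e-04), lower in bone chips (-1.97, adjusted p = 0.00149) and at 8140 counts in ESC-OB GFP+ cells against 0 in ESC, at least 1010-fold higher with the floor set at 3 counts over the ESC libraries.

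Of the other P2 and adenosine receptors, few were expressed above the filter in bone. *P2rx6* had 1 count in bone GFP+ (hi) cells and 65 in bone GFP- cells, a ratio of 0.0061 with a counting interval of 0.000152 to 0.0352, and was also lower in bone chips (-1.82, adjusted p = 0.0128). *P2ry1*, an ADP receptor, was not called in bone (1.86, adjusted p = 0.112), was lower in bone chips (-1.72, adjusted p = 0.0407, and 0.0718 with a replicate block) and higher in ESC-OB GFP+ cells (1.79, adjusted p = 0.0043). *Adora1*, the adenosine receptor that lowers cyclic AMP, had 3 counts in bone GFP+ (hi) cells and 38 in bone GFP- cells (ratio 0.0313, counting interval 0.00618 to 0.0987), was lower in bone chips (-3.36, adjusted p = 0.0148), and had 4294 counts in ESC-OB GFP+ cells against 2 in ESC (ratio 800, counting interval 221 to 6610). These intervals cover counting error only. All 4 P2Y genes tested against ESC, *P2ry1*, *P2ry4*, *P2ry6* and *P2ry14*, were higher in ESC-OB GFP+ cells, where 43% of all genes were.

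**Figure D5:**
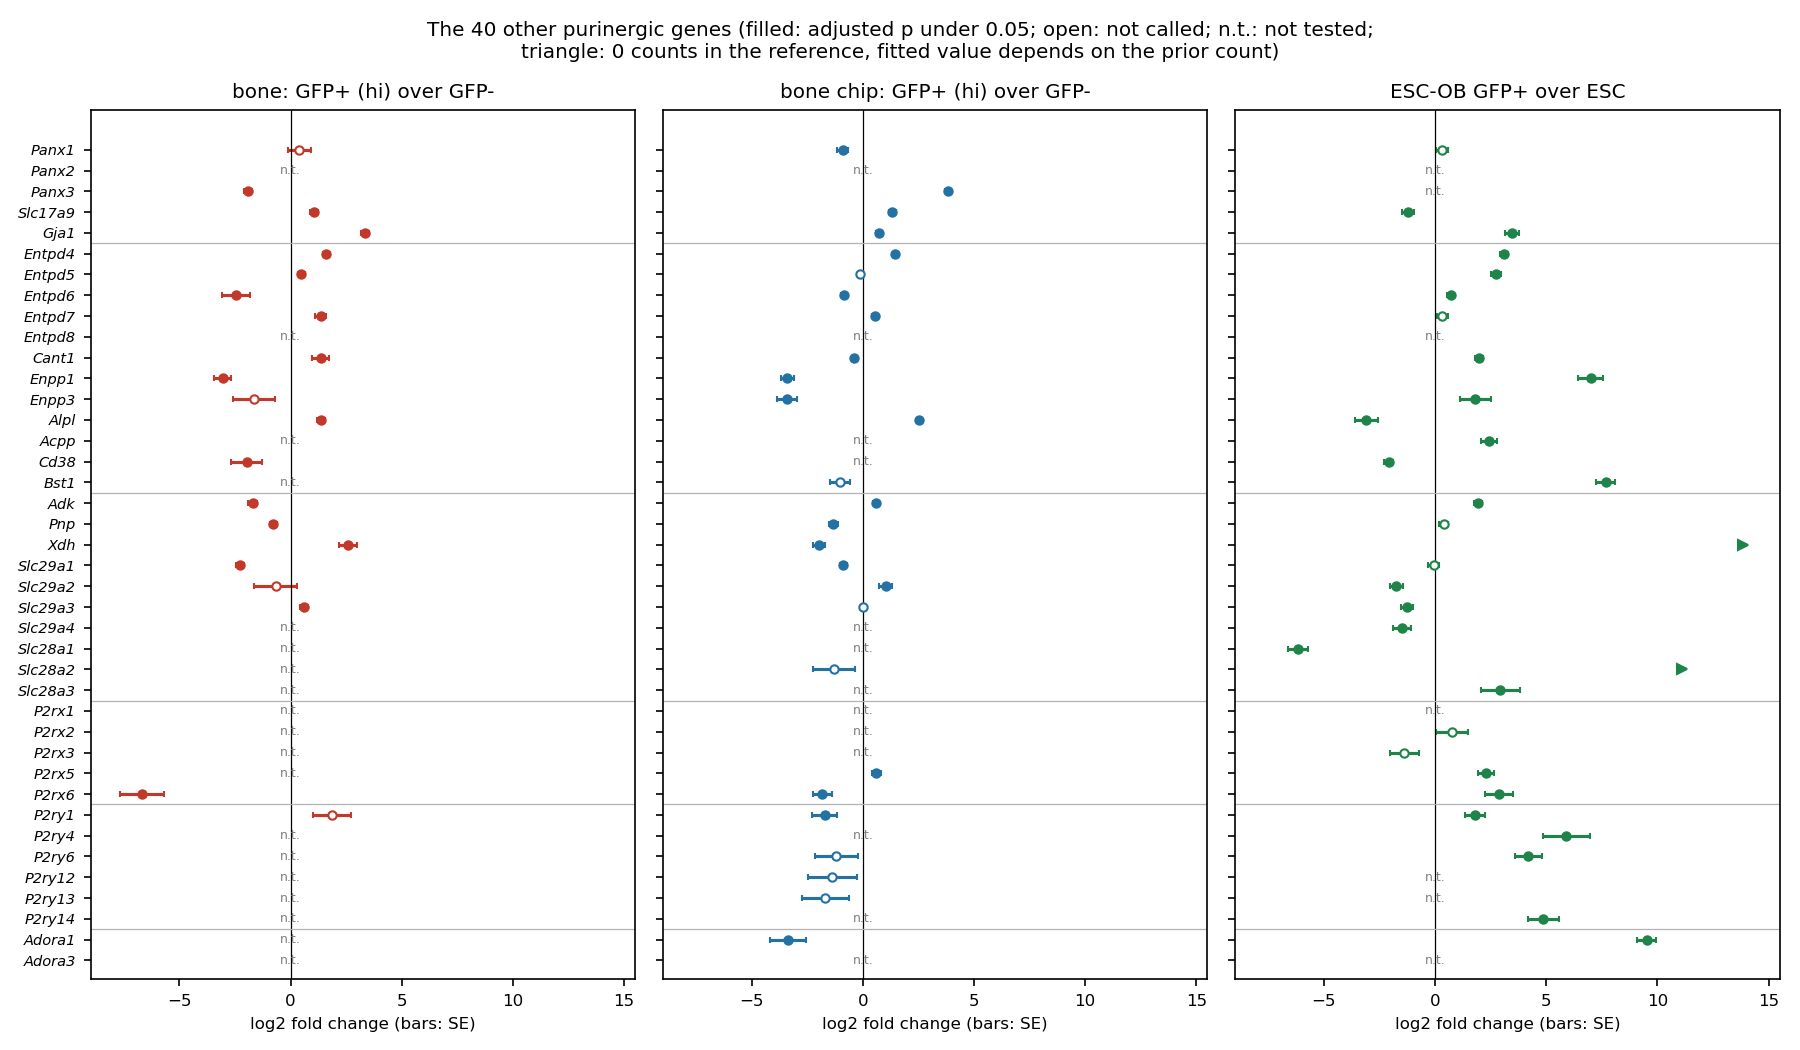
Log2 fold changes (x axis, bars are SE) of the 40 further genes (y axis, grouped by role from release at the top to adenosine receptors at the bottom) in the 3 comparisons. Filled points passed an adjusted p of 0.05, and the 2 triangles, *Xdh* and *Slc28a2*, had 0 counts in ESC, so that their position depends on the prior count.

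The genes whose levels ran closest to those of *Entpd3* over the 18 libraries, among 11118 genes that passed the filter in every source, were *Pdgfd* (Pearson r = 0.983), *Bmp3* (0.98), *Gucy1a3* (0.978), *Lpar3* (0.967) and *Cfhr2* (0.965). They encode a platelet-derived growth factor, a bone morphogenetic protein, a subunit of soluble guanylate cyclase, a receptor for lysophosphatidic acid and a relative of complement factor H. The correlation is a description of log2(CPM + 1) over libraries that fall into 6 groups of 3 and share their tables, and no test was made. *Bmp3*, for example, had a mean log2(CPM + 1) of 7.41, 7.52 and 3.63 in the GFP+ cells of bone, bone chips and ESC-OB, against 1.10, 2.81 and 0.00 in their references. Within the set, the level of *Entpd3* ran opposite to that of *Ada* (r = -0.747) and *P2rx7* (r = -0.687) over the same libraries. Since *Entpd3* was noted for being higher in all GFP+ cells and both genes had negative log2 fold changes in every source, these values restate group differences given above.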

How the data were processed

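Poly-A RNA of 18 libraries was sequenced with paired reads on an Illumina HiSeq. Per the labels and the study's methods, the authors aligned reads with STAR 2.4.2a to mm9 and counted them over RefSeq genes, and the deposited values are whole-number counts per gene, with 1 table per source. The counting tool, strand setting and handling of reads that map to several places were not given in the sources used here. The submitters' notes also name DESeq2 and R 3.2.2.

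Each source was fitted on its own with edgeR 4.0.16 in R 4.3.3 (filterByExpr with a minimum count of 10, TMM factors, quasi-likelihood test, Benjamini-Hochberg adjustment over all genes tested, threshold 0.05). CPM used TMM-scaled totals within a source, and RPKM used a joint scaling and exon lengths from GENCODE vM1. SE was the log2 fold change divided by the root of F. The interaction was fitted on 12 libraries. Alternatives were DESeq2 1.42.0, RLE factors, other filters, thinning, a joint fit, a replicate block, each library left out and, chosen after seeing the data, library totals, merged ESC replicates and a single bone GFP+ (hi) library. Scripts were tested on simulated data. The genes to be named were the 10 of the set, any of the 40 further genes, *Col1a1* and the 5 most like *Entpd3*. The set, lists and motifs were chosen with earlier results of these data known, and the further genes given in the text were picked after their values were seen.

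Samples with the same replicate number deviated together in bone chips (correlation over genes 0.185, 0.355 and 0.413) and not in bone (-0.03 to 0.03) or the ESC comparison, so the numbers pair samples in bone chips, as judged from the data alone. The reported fits hold no replicate block in any source, and the block was run as an alternative in all of them. Depth was 4920977 to 43874837 counts per library. Intervals are exact at 95% and cover counting error only.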

Additional observations from a re-analysis of the deposited data

Results flagged for a closer look

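The effect of GFP differed between bone and bone chips for 3 of the 9 genes with a test, by an interaction term in edgeR's quasi-likelihood test over 12 libraries. This is near the share of all genes that differed, 30.3%, and in bone GFP cannot be told apart from sex or animal. For *Nt5e* the mean RPKM was 31.3 and 30.4 in GFP+ (hi) cells of bone and bone chips, against 147 and 40.5 in their GFP- cells. The log2 difference, bone minus bone chip, was -1.95 for *Nt5e* (adjusted p = 0.00762), 1.82 for *Ada* (adjusted p = 0.0254) and -3.12 for *P2ry2* (adjusted p = 0.0159). The call of *Ada* was lost in 7 of the alternatives run, among them the replicate block (1.77, adjusted p = 0.0688), and with libraries thinned to the smallest total 1 of the 3 calls was left, that of *Nt5e*.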

How the results depend on the processing

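The number of genes of the set called lower in bone, 3 in the fit reported, was 5 by DESeq2 and 6 with library totals alone, under which the further genes called higher numbered 3 in bone and 4 in bone chips, in place of 9 each. With libraries thinned to the smallest total, 2 of the set and 6 of the further genes were called lower in bone chips, in place of 5 and 11, and 1 interaction was called in place of 3. The joint fit of 18 libraries called 7 further genes lower in bone chips. With 1 library left out, bone chips had 0 to 1 of the set higher (1 without GFP- replicate 1), 2 to 5 lower (2 without GFP+ (hi) replicate 1 or 2, 3 without GFP- replicate 3) and 7 to 11 further genes lower (7 without GFP+ (hi) replicate 1), and the ESC comparison had 1 to 2 of the set lower (1 without ESC-OB GFP+ replicate 2 or 3 or ESC replicate 2). Uncalled values changed sign when 1 library was left out, over -2.33 to 1.41 for *Entpd1* in bone chips and, as bone minus bone chip, over -4.92 to 0.84 for *Entpd1*, -0.22 to 0.063 for *P2rx4*, -1.54 to 1.49 for *Adora2a* and -0.26 to 1.10 for *Adora2b*. With a replicate block the difference for *Adora2a* was 0.26 (edgeR adjusted p = 0.969) and that for *Ada* lost its call (1.77, adjusted p = 0.0688), and no call of the set within a source changed. Among the further genes the block ended the calls of *Cd38* (-2.11, adjusted p = 0.0531), *Entpd5* (0.49, adjusted p = 0.0675) and *Slc29a3* (0.59, adjusted p = 0.055) in bone, *P2ry1* (-1.70, adjusted p = 0.0718) in bone chips and *Enpp3* (1.57, adjusted p = 0.0687) in the ESC comparison. Causes of these shifts were not tested. In bone, no library held more than 11 counts of *Entpd1*, *Adora2a* or *Adora2b*, which allowed no test there.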
